A study of Mus musculus with 12 samples.

Results

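The microRNAs (miRNAs) described here are both arms of miR-142a, miR-142a-5p and miR-142a-3p, and the 5p arm of miR-150, miR-150-5p. In the files they are the rows mmu-miR-142a-5p, mmu-miR-142a-3p and mmu-miR-150-5p, 3 of the 1978 mature miRNAs listed in each count file. They were chosen by their measured level in embryonic stem cells, as miRNAs known from blood that were counted there, with earlier results of these libraries known. Their levels in embryonic stem cells, and every comparison that uses those levels, are therefore given below as descriptions with no test. Small RNA was sequenced from E14, an established line of mouse embryonic stem cells (ESC), and from TSC, mouse trophoblast stem cells, which stand for the lineage that builds the placenta. The question of the series is which miRNAs differ when such cells enter a reversible pause. For either cell type there were control cultures, labelled WT, and cultures labelled as an mTOR inhibited pause; mTOR is a kinase that promotes growth. The sources used here do not give the inhibitor, its dose, the length of treatment, the use of feeder cells or the TSC line.

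A miRNA is cut from a hairpin in its precursor RNA and guides the silencing complex to messenger RNAs that pair with its seed, bases 2 to 8 from its 5′ end. miR-142a is known as a miRNA of the whole blood lineage, from progenitors to mature cells, where both arms of its hairpin are used. miR-150-5p is known from mature B and T lymphocytes, where its best studied target is the transcription factor Myb.

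Both arms of miR-142a come from 1 hairpin, at chr11:87756864-87756927 on the plus strand of GRCm38, in the intron of the noncoding gene Mir142hg; the nearest protein-coding gene, Tspoap1, lies 3614 bp away. The sequences, from RefSeq on GRCm38.p6, are shown because the arms carry different seeds and because the opposite strand holds another miRNA, miR-142b. Capitals mark the seed in the mature sequences and the 2 mature arms in the hairpin.
miR-142a-5p: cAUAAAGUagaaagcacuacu
miR-142a-3p: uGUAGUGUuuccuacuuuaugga
miR-142b: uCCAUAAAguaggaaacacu
Mir142 hairpin: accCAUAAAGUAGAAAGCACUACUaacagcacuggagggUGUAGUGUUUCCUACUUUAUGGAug
No other of the 1679 mature miRNAs of the RefSeq table that also name a row of the files has the seed of miR-142a-5p or that of miR-142a-3p. All 20 bases of miR-142b are the reverse complement of a stretch within miR-142a-3p, and miR-142b had 0 counts in all 8 libraries. The hairpin of miR-150 lies at chr7:45121757-45121821 on the plus strand. The loci are on different chromosomes, so the arms of miR-142a share a precursor with each other and not with miR-150-5p.

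Of the 12 files, those of replicates 2 and 3 were identical within every group, at all 1978 miRNAs, and were counted as 1 library, so that n = 2 in each of the 4 groups. The labels do not say whether replicates are separate cultures; p-values measure only the spread between these samples, which may be technical. Total counts ran from 13607 in control ESC replicate 2 to 115492 in control TSC replicate 1, and both paused ESC libraries were deeper (73574 and 61749 counts) than both control ESC libraries (19266 and 13607). Levels are given as CPM (counts per 1000000 counts) on library sizes scaled by TMM, the trimmed mean of M-values. A count of 0 allows a level of up to 3 counts, worth 37.4 CPM in the library where that limit was lowest and 192 CPM where it was highest. Markers of trophoblast matched the labels: miR-322 and miR-503, known from trophoblast, summed to 117613 to 142432 CPM in control TSC and to 547 to 959 CPM in control ESC. In paused TSC they summed to 49310 to 63626 CPM and in paused ESC to 648 to 773 CPM. This list was chosen with earlier results of these libraries known. All 3 miRNAs passed the filter on low counts, as 3 of 206 tested, and they passed it through ESC, since none reached 10 counts in a TSC library.

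In control ESC both arms of miR-142a were among the better counted miRNAs, and in paused ESC both stood far lower. miR-142a-5p had 82 and 90 counts in control ESC, or 3737 and 5752 CPM, and was the 26th and 23rd most counted miRNA of those libraries. In paused ESC it had 25 and 11 counts, or 312 and 170 CPM, and ranked 134th and 171st. Both control libraries lay far above both paused libraries, although the paused libraries were the deeper ones. Control ESC averaged 4744 ± 1425 CPM and paused ESC 241 ± 100.1 CPM (SD, n = 2), and the ratio of control to paused over pooled counts was 18.4 (95% counting interval 12.8 to 27.2). In these bulk samples fewer cells that hold the miRNA and less of it per cell cannot be told apart.

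miR-142a-3p, the other product of the same hairpin, had the same pattern at a lower count. It had 36 and 39 counts in control ESC, or 1641 and 2492 CPM, and 12 and 8 counts in paused ESC, or 150 and 124 CPM. Over pooled counts control ESC held 14.4 times the paused level (95% counting interval 8.73 to 25.0). The log2 fold changes of the fit over all tested miRNAs were −4.25 ± 0.43 (SE) for miR-142a-5p and −3.86 ± 0.45 (SE) for miR-142a-3p, the 14th and the 18th lowest of 206, where the median of all tested was −0.0285. Both arms were among the 206 through control ESC alone, so these ranks are a description. Replicate 2 of control ESC held the higher level of both arms, and without it the fold changes were −3.55 and −3.20, where the median of all tested was 0.312.

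miR-150-5p went the other way in the same cells. It had 54 and 22 counts in control ESC, or 2461 and 1406 CPM, and 380 and 279 counts in paused ESC, or 4739 and 4316 CPM. The paused libraries lay close together and above both control libraries, while the 2 control libraries differed by more than the paused ones did. Control ESC averaged 1933 ± 746 CPM and paused ESC 4527 ± 299 CPM (SD, n = 2). The ratio of paused to control over pooled counts was 2.25 (95% counting interval 1.77 to 2.89). Its log2 fold change was 1.20 ± 0.38 (SE), the 20th highest of 206, and without control ESC replicate 1 it was 2.05, where the median of all tested was 0.447. In paused ESC it ranked 24th in count in both libraries, near the rank that miR-142a-5p held in control ESC.

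Lack of overlap alone sets none of these apart. Of the 3, miR-142a-5p and miR-142a-3p were lower in paused ESC with no overlap between libraries, where 34.0% of all tested miRNAs were, and miR-150-5p was higher with no overlap, where 34.5% were. The scaling between libraries moved all fold changes together: the median of all tested miRNAs in ESC was 0.114 with DESeq2's size factors and −0.124 with the total count alone, against which miR-150-5p stood at 1.36 and 1.11 and miR-142a-5p at −4.12 and −4.35.

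**Figure D1:**
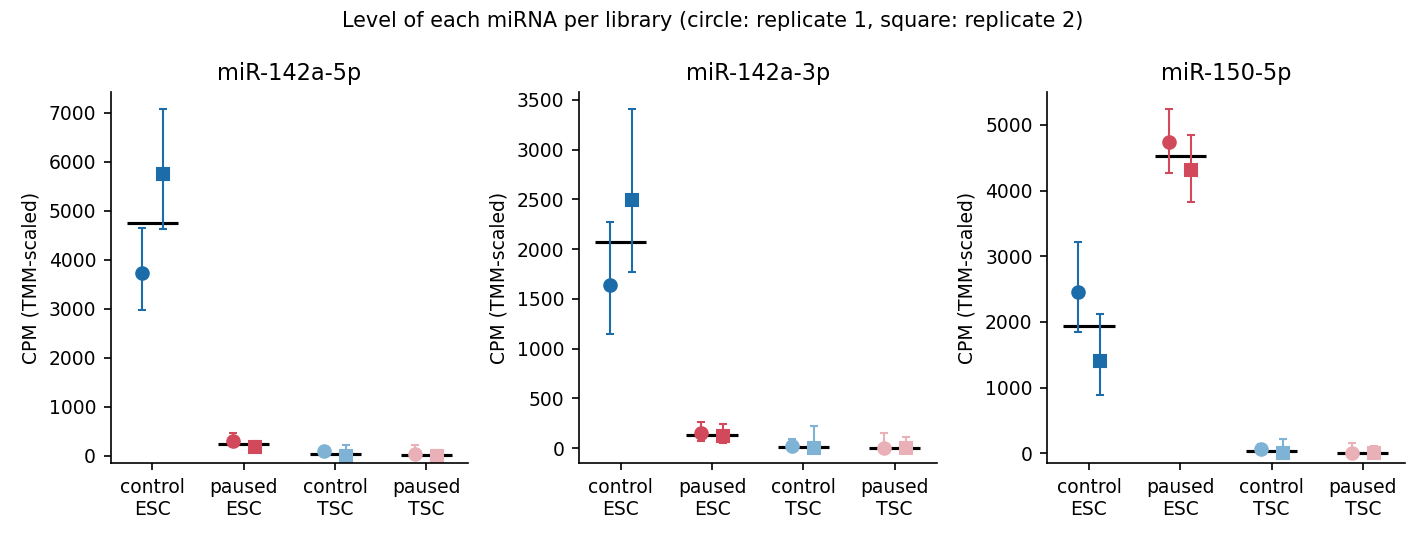
Level of miR-142a-5p, miR-142a-3p and miR-150-5p (CPM after TMM scaling, linear axes that differ between panels) in the 8 distinct libraries; circles are replicate 1, squares replicate 2, bars on points the exact 95% Poisson interval of the count, and horizontal lines the group means. Both arms of miR-142a are high in control ESC and low in the other 3 groups, whereas miR-150-5p is highest in paused ESC.

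**Figure D2:**
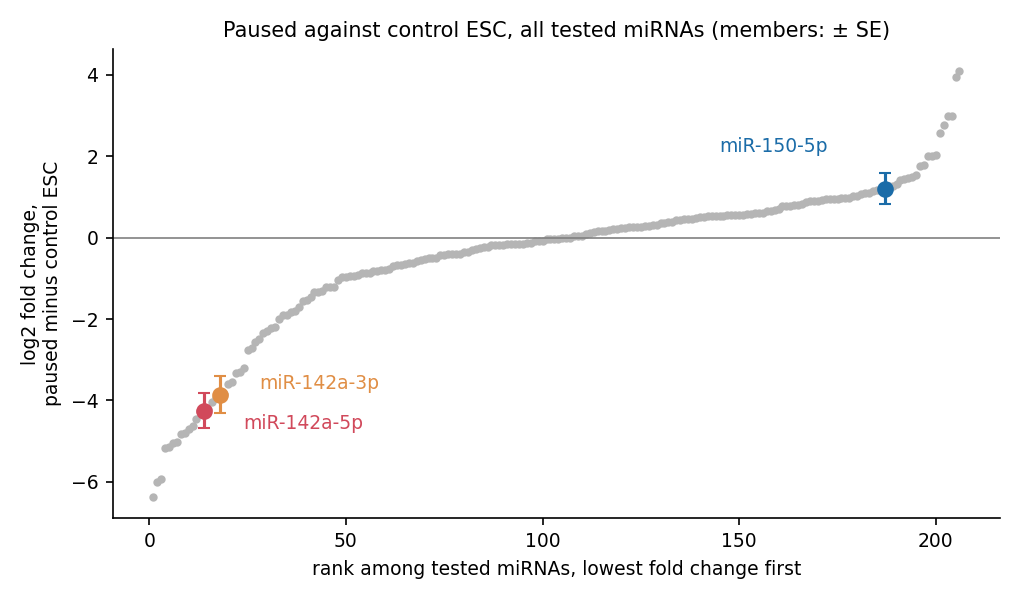
Log2 fold change of paused against control ESC for the 206 tested miRNAs, ordered from the lowest to the highest (grey), with miR-142a-5p, miR-142a-3p and miR-150-5p marked with their standard errors. The arms of miR-142a stand at −4.25 and −3.86, near the low end, and miR-150-5p at 1.20, on the other side of 0.

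The level of miR-142a-5p against miR-150-5p can also be read within each library, where the scaling between libraries cancels. Of the counts on miR-142a-5p and miR-150-5p together, miR-142a-5p held 60.3% (95% exact Clopper-Pearson interval 51.6 to 68.6) and 80.4% (71.8 to 87.3) in the control ESC libraries. In the paused ESC libraries it held 6.17% (4.03 to 8.98) and 3.79% (1.91 to 6.69). The intervals cover counting error only. Those of the control libraries do not meet those of the paused ones, and those of the 2 control libraries do not meet each other. The control libraries thus differ by more than counting error. As a description, the share differed between control and paused ESC, and it does not give how much each of the 2 miRNAs changed.

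The balance of the arms of miR-142a did not enter the choice of these miRNAs and was tested. Of the counts on both arms, the 5p arm held 69.5% (60.3 to 77.6, of 118 counts) and 69.8% (61.1 to 77.5, of 129) in control ESC. In paused ESC it held 67.6% (50.2 to 82.0, of 37 counts) and 57.9% (33.5 to 79.7, of 19). Control ESC averaged 69.6% ± 0.195 and paused ESC 62.7% ± 6.84 (SD, n = 2), a difference of −6.90 percentage points (exact two-sided permutation p = 0.33, the smallest that 2 libraries against 2 allow). Both control shares lay above both paused shares, with overlapping intervals, and a design of this size could not have passed a threshold of 0.05 at any difference. Leaving out paused ESC replicate 1 gave −11.7 percentage points, and leaving out replicate 2 gave −2.06. In TSC the arms had at most 9 counts in a library and no share was computed. For miR-150 the 3p arm had 0 counts beside the 54 and 22 of the 5p arm in control ESC, and 3 and 2 beside 380 and 279 in paused ESC, so that the 5p arm held 99.2% (97.7 to 99.8) and 99.3% (97.5 to 99.9) of the paused counts.

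**Figure D3:**
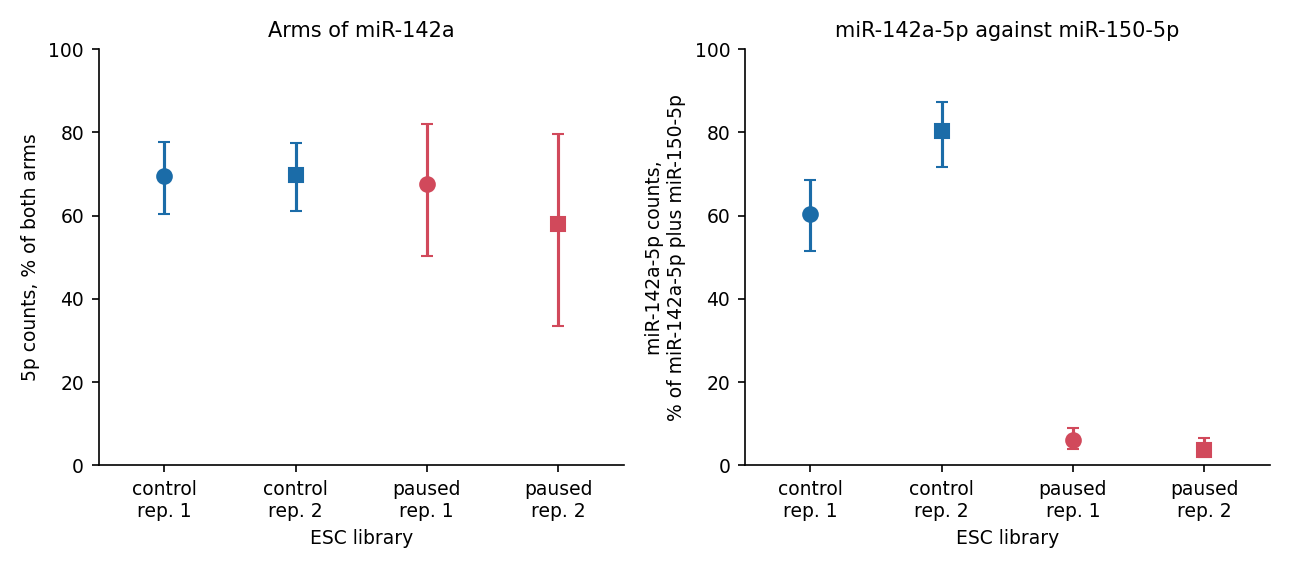
Left, share of the 5p arm in the counts on both arms of miR-142a, and right, share of miR-142a-5p in the counts on miR-142a-5p plus miR-150-5p, in percent, for each ESC library with its exact 95% binomial interval. The arm shares lie between 57.9% and 69.8% with overlapping intervals, while the share against miR-150-5p lies at 60.3% and 80.4% in control and at 6.17% and 3.79% in paused ESC.

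In TSC the 3 miRNAs were at or near 0 in both states. In control TSC replicate 1, the deepest library, miR-142a-5p had 7 counts (89.2 CPM), miR-142a-3p 2 (25.5 CPM) and miR-150-5p 5 (63.7 CPM), and in control TSC replicate 2 all 3 had 0. In paused TSC the only count was 1 of miR-142a-5p in replicate 1. A count of 0 in control TSC replicate 2 allows up to 181 CPM, so levels like those of replicate 1 could have gone uncounted there. Between paused and control TSC, the comparison that did not enter the choice, edgeR's quasi-likelihood test called 0 of the 3 (adjusted p = 0.363, 0.437 and 0.146 for miR-142a-5p, miR-142a-3p and miR-150-5p), where 18.9% of all tested miRNAs were called. At an unadjusted p under 0.05 edgeR counted 1 of the 3, miR-150-5p, on its 5 counts in 1 library. No share over all tested miRNAs was computed for that rule, so this count is not read as a result. DESeq2 called 0 of the 3 after adjustment, where it called 12 of the 206 tested miRNAs. No fold can be given for miR-142a-3p, and for miR-150-5p the 5 counts of control TSC are at the level that 0 counts allow in paused TSC. The ratio of control to paused for miR-142a-5p was 4.21 (95% counting interval 0.541 to 190). With so few counts in TSC the test could hardly have called any of the 3, and it does not show whether pausing changed them there.

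All 3 were higher in ESC than in TSC, in either state, with no overlap between libraries where a count of 0 is read as 0 CPM. At the limit of 3 counts, paused TSC replicate 1 could hold up to 124.0 CPM of miR-142a-3p, level with the 124 CPM of paused ESC replicate 2, so these libraries are not shown to be apart. In the control cells 39.3% of all tested miRNAs were higher in ESC in this way, and in the paused cells 45.1%. The comparison of control cells shares the control ESC libraries with the pause effect in ESC. Over pooled counts the ratio of control ESC to control TSC was 62.2 for miR-142a-5p (95% counting interval 29.5 to 157), 94.9 for miR-142a-3p (25.4 to 798) and 38.5 for miR-150-5p (15.8 to 122). With the total count alone these ratios were 100.3, 153 and 62.1, and the median log2 fold change of all tested miRNAs moved from −0.225 to 0.403. Without control ESC replicate 1 the ratio of miR-142a-5p was 93.5.

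In paused cells TSC had 1 count of miR-142a-5p and 0 of the others, so the values that follow are an estimate with a wide interval and lower bounds, which do not order the miRNAs. The ratio of paused ESC to paused TSC was 14.2 for miR-142a-5p (95% counting interval 2.40 to 578, with 1 count in TSC), 6.97 without paused TSC replicate 2 and 22.3 with TMM factors from miRNAs filtered at 10 CPM. miR-142a-3p was at least 2.64-fold higher in paused ESC, against a limit of 3 counts over the group. This bound was 4.12 with the filter at 10 CPM, 4.03 with all files as libraries, and 1.53 and 1.29 without paused TSC replicates 1 and 2. miR-150-5p was at least 86.8-fold higher, a bound that was 136, 135, 50.5 and 42.5 in the same order.

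The order of the groups differed between the hairpins. For both arms of miR-142a it ran from control ESC over paused ESC to the 2 TSC groups. For miR-150-5p it ran from paused ESC over control ESC to the 2 TSC groups. For each of the 3 the TSC groups do not differ beyond their spread. For miR-150-5p both ESC groups lie above what 0 counts allow in TSC. For the arms of miR-142a only control ESC does: the 181 CPM that 0 counts allow in control TSC replicate 2 is above miR-142a-5p in paused ESC replicate 2 and above miR-142a-3p in both paused ESC libraries.

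Most other miRNAs known from blood had few counts or none, as did most rows of the files. The list held 18 rows beside the 3 chosen ones, and 12 of them had 0 counts in all 8 libraries. Of all 1978 rows 1330 were at 0 in every library, a similar share, so this count does not set the blood list apart. Among these were both arms of miR-223, the main miRNA of granulocytes and monocytes, and miR-451a, the main miRNA of red cells, each with a single genomic copy in the RefSeq table, and the arms of miR-486a and miR-486b, also known from red cells. miR-144-3p, transcribed with miR-451a, had 3 counts in all, and miR-155-5p, known from activated lymphocytes and macrophages, had 2. Only miR-342-3p and miR-146a-5p reached 10 counts over all libraries.

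miR-342-3p, which lies in an intron of Evl and is known from lymphocytes and from other tissues, was the 1 tested row among these 18. It had 1367 and 959 CPM in control ESC and 885 and 1253 CPM in paused ESC, so that the groups overlap. Its log2 fold change was −0.15 ± 0.38 (SE; edgeR adjusted p = 0.789), where 27.7% of all tested miRNAs were called in ESC. The blood list was chosen with results of these libraries known, so the p-values of its rows are descriptions. In TSC its level was 190 ± 71.2 CPM without and 388 ± 35.7 CPM with the pause (SD, n = 2; edgeR adjusted p = 0.131). miR-146a-5p, an immune regulator induced by NF-κB signalling, had 0 and 1 counts in control ESC (0 and 63.9 CPM). In paused ESC it had 6 and 5 counts (74.8 and 77.3 CPM). The 0 counts of control ESC replicate 1 allow up to 137 CPM, so no difference is shown. In TSC it had 36 counts in control, 33 of them in replicate 1, and 20 in paused cells. Its level there was 300 ± 170 CPM without and 341 ± 73.4 CPM with the pause (SD, n = 2). Summed over the 18 rows the level was 1086 to 1367 CPM in control ESC and 1047 to 1361 CPM in paused ESC, nearly all of it miR-342-3p, while control TSC held 421 to 573 CPM and paused TSC 703 to 756 CPM.

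Markers of further cell types were summed in the same way. Both arms of miR-126a, known from endothelium, reached 831 to 911 CPM in control ESC and 960 to 975 CPM in paused ESC, and in TSC 2943 to 3070 CPM without and 1845 to 2273 CPM with the pause. On pausing in ESC the log2 fold change was −0.41 ± 0.48 (SE) for the 3p arm and 1.02 ± 0.56 (SE) for the 5p arm. Neither arm was called (edgeR adjusted p = 0.552 and 0.169 in this order), where 27.7% of all tested miRNAs were. With the list chosen with results of these libraries known, this too is a description. The 10 rows known from fibroblasts, which serve as feeder cells, summed to 767 to 1003 CPM in control ESC and 851 to 1072 CPM in paused ESC, most of it miR-143-3p (620 ± 154 and 620 ± 23.1 CPM; SD, n = 2) and miR-145a-5p. The control TSC libraries held 602 to 1032 CPM of them and the paused ones 151 to 455 CPM. Of these rows miR-199a-5p, miR-199a-3p and miR-199b-3p were at 0, and each has 2 or 3 genomic copies; how reads with several loci were counted is not stated. miR-214-3p, miR-214-5p and miR-199b-5p were at 0 in ESC. The neural list summed to 4 counts in paused ESC and 0 in control ESC, and the muscle and liver lists to 0 in ESC. Thus neither the endothelium nor the fibroblast sum was lower in paused than in control ESC in both libraries. The neural, muscle and liver sums were 0 in control ESC and could not have been lower. The part of any of these lists in the results for the members was not tested.

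The list whose sum was lower in paused ESC along with miR-142a was miR-302/miR-367, a cluster of pluripotent cells that is higher in the primed state. It summed to 2507 to 4346 CPM in control ESC, 61.9 to 112 CPM in paused ESC, 0 to 76.4 CPM in control TSC and 0 CPM in paused TSC. Of its 10 rows 3 were tested and edgeR called all 3 lower in paused ESC, where 19.4% of all tested miRNAs were; the list was chosen with results of these libraries known, so this count is a description. Its rows miR-302c-5p and miR-367-5p were at 0 in every library. The part of this list in the result for miR-142a was not tested.

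**Figure D4:**
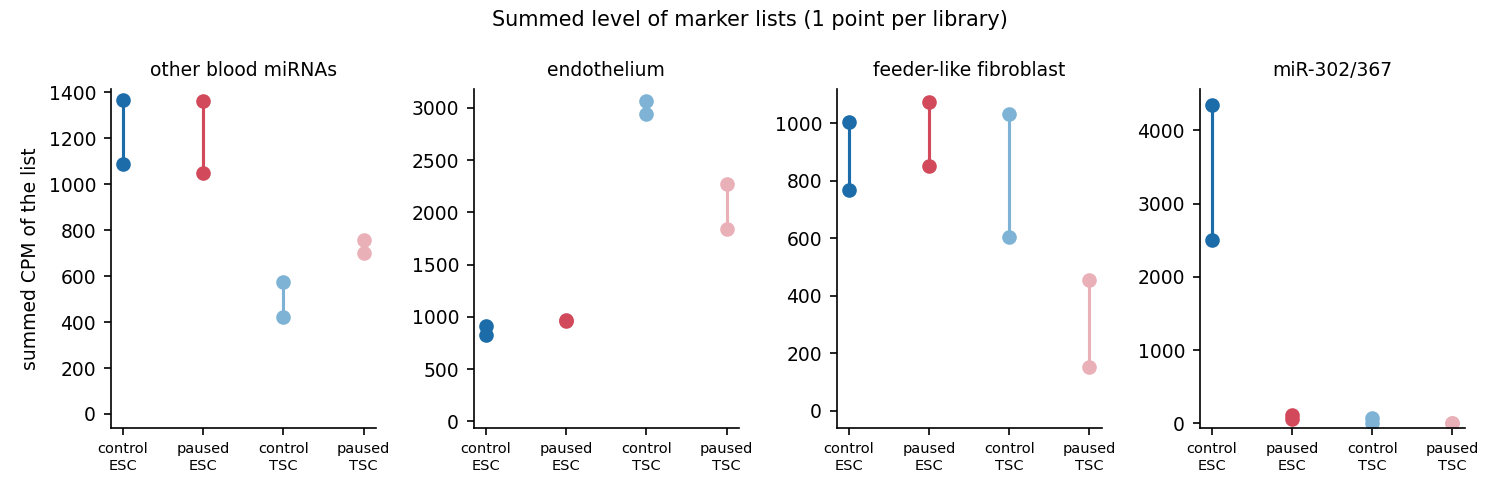
Summed CPM of the 18 other rows known from blood, of miR-126a (endothelium), of 10 rows known from fibroblasts and of the miR-302/miR-367 cluster in each group; each point is 1 library and lines join the 2 libraries of a group, on linear axes that differ between panels. The first 3 lists overlap or lie close together in control and paused ESC, and the miR-302/miR-367 sum is 2507 to 4346 CPM in control ESC against 61.9 to 112 CPM in paused ESC.

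The miRNAs whose pattern was most like that of the members were found by the root mean square (RMS) difference of centred log2 CPM over the 8 libraries, a description in which low counts in TSC weigh on every value. The arms of miR-142a differed from each other by 0.456 on this scale, less than either did from any other tested miRNA. Next to both came miR-367-3p, at 0.893 from miR-142a-5p and 0.564 from miR-142a-3p, and miR-302b-3p, at 1.02 and 0.757. miR-302d-3p and miR-708-3p followed, at 1.18 and 1.24 from miR-142a-5p and at 0.880 and 0.856 from miR-142a-3p. miR-367-3p had 40 counts in control ESC, 4 in paused ESC and 0 in TSC. The fifth place was held by miR-154-3p (1.27) for miR-142a-5p and by miR-665-3p (1.06) for miR-142a-3p.

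miR-150-5p stood at 2.11 from miR-142a-5p and had other neighbours. The nearest were miR-376c-3p (0.623), miR-323-3p (0.705), miR-494-3p (0.716) and miR-411-3p (0.749), all from the imprinted Dlk1-Dio3 locus, and miR-363-5p (0.813), of the X-linked miR-106a-363 cluster. Their pattern held, like that of miR-150-5p, high levels in both ESC groups and few counts in TSC: miR-376c-3p had 3289 ± 1042 CPM in control ESC and 3925 ± 49.1 CPM in paused ESC (SD, n = 2), and 7 and 1 counts in control and paused TSC. Their log2 fold changes on pausing of ESC ran from 0.15 for miR-323-3p to 1.10 for miR-363-5p, beside 1.20 for miR-150-5p.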

How the data were processed

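Small RNA from E14 ESC and from TSC was extracted on columns and sequenced from SMARTer smRNA-seq libraries, per the labels' protocols. The deposited files hold raw counts per mature miRNA, made by the authors; the build was GRCm38, as the submitters' processing notes have it. The sources used here do not give the aligner, the counter, its annotation or its rule for reads with several loci. Intervals and floors cover counting error only, since the labels name no molecular identifiers.

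Samples were grouped by their titles, and identical files were counted as 1 library. With edgeR 4.0.16 in R 4.3.3, counts were scaled by TMM, filtered with filterByExpr (206 miRNAs kept, with a minimum of 10 counts at the median depth) and fitted with quasi-likelihood and 1 mean per group over all 4 groups. Paused against control TSC was tested, two-sided, with Benjamini-Hochberg adjustment over all tested miRNAs and a threshold of 0.05. For the members, folds that involve ESC are descriptions. For listed miRNAs that are not members, the adjusted p of the same fit is also given in ESC, as a description. The arm balance was compared by an exact permutation test in libraries with at least 10 counts over both arms. Counting intervals are exact at 95%, and a count of 0 is set to a floor of 3 counts. The fitting script was tested on simulated data. Alternatives were DESeq2 1.42.0, other scalings and filters, all files as libraries, fewer groups, a replicate block and each library left out.

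The members and lists (blood, endothelium, fibroblast, neural, muscle, liver, miR-302/miR-367 and trophoblast markers) were chosen with earlier results of these data known. Named beside the members are listed miRNAs with 10 or more counts, some at or near 0, and for each member the 5 tested miRNAs with the lowest RMS difference of centred log2 CPM (prior count 2). RefSeq sequences on GRCm38.p6 matched 1679 of 1978 rows; loci are from GENCODE M21.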

Additional observations from a re-analysis of the deposited data

How the results depend on the processing

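The log2 fold changes of the members between paused and control ESC kept their direction under every alternative run, from −4.48 to −3.94 for miR-142a-5p, −3.99 to −3.56 for miR-142a-3p and 1.11 to 1.47 for miR-150-5p. With 1 library left out they ran from −4.80 to −3.55, from −4.04 to −3.20 and from 1.11 to 2.05; an arm left with 1 library is assumed to vary like the other groups. With the replicate number as a block they were −4.25, −3.84 and 1.26, and the calls over all tested miRNAs went from 57 to 44 in ESC and from 39 to 12 in TSC. The labels give only a shared number: deviations of same-numbered libraries correlated at −0.0715 in ESC and −0.183 in TSC. In TSC 0 of the 3 members were called under any alternative run; the fit to TSC alone kept none of them. The fitted log2 fold change of miR-142a-5p in TSC ran from −4.40 to 2.60 with 1 library left out and was reversed, at 2.60, without control TSC replicate 1, whose counts make up all but 1 of those in TSC. Adjusted p in TSC ran from 0.227 to 0.972 for miR-142a-5p, 0.246 to 1 for miR-142a-3p and 0.0838 to 1 for miR-150-5p. Calls over all miRNAs in TSC were 24 with DESeq2's size factors, 26 with the total count (14 higher and 12 lower), 12 by DESeq2, 16 with no filter, 19 with TSC alone, 55 with all files and 7 to 32 with 1 library left out; in ESC they were 37 by DESeq2 and 94 with all files.

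For ESC against TSC, the lower limit of the ratio of miR-150-5p in paused cells was 115 with DESeq2's size factors, 108 with no filter, 136 with the filter at 10 CPM, 135 with all files and 99.3 with only the groups compared, and 42.5 to 103 with 1 library left out. That of miR-142a-3p was 4.12 with the filter at 10 CPM and 1.29 to 3.26 with 1 library left out. The ratio of miR-142a-5p in paused cells was 6.97 to 20.4 with 1 library left out. In control cells these ranges were 61.4 to 93.5 for miR-142a-5p, 94.3 to 142 for miR-142a-3p and 32.0 to 56.6 for miR-150-5p. Such ratios have no form with a block or by DESeq2. No ratio was formed for TSC without its 1 library with counts. The arm difference was −8.56 with all files, −5.35 with pooled counts and −11.7 to −2.06 with 1 library left out. Depth limits all TSC values, where no library held 10 counts of a member.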
